A study of Drosophila melanogaster with 24 samples.

Results

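Fatp1 encodes a fatty acid transport protein of Drosophila melanogaster, and its messenger RNA was read here through 1 transcript, FBtr0080133, out of 16637 transcripts on the array. The transcript was chosen by its measured stage change, the deepest fall in prepupae relative to late larvae among the 16 transcripts that could be given 1 gene name, so that change is given as a description without a test. Whole animals of 4 strains, Oregon-R, Canton-S, Samarkand and Zimbabwe-109, were measured at 2 stages, in 8 groups of 3 biological replicates on 24 single-colour arrays. The prepupa was the white prepupa, an animal that has just made its puparium, and the late larva was an animal late in the last larval instar before that event. The labels tag the larval stage as 18BPF or ≥18BPF and give no unit for the 18. Apart from the strain, the labels name no mutation, transgene or drug. All larvae grew at 25 °C, uncrowded and in constant light, in food coloured with 0.05% bromophenol blue, and each replicate pooled 60 to 80 frozen animals, about 120 mg. The sources used here do not give the sexes pooled. Each strain had RNA extractions of its own, so strain and extraction cannot be told apart in any strain difference below.

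Fatty acid transport proteins are membrane proteins that promote the uptake of long-chain fatty acids, and they do so together with an acyl-CoA synthetase activity that traps the fatty acid inside the cell. In the fly, Fatp1 is best known from the retina, where it bears on photoreceptor survival and on lipid droplets in the neighbouring cells. The larva feeds and fills its fat body with lipid, whereas the prepupa no longer feeds and lives on those stores through metamorphosis. A whole-animal sample mixes all tissues, so a change in the amount of a tissue and a change in the transcript level within its cells cannot be told apart.

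The gene table ties FBtr0080133 to Fatp1 through 2 open reading frames named after the transcript, an upstream frame and a main frame. The same table lists 4 RefSeq transcripts for the gene, and which of them the probes of FBtr0080133 also read was not known here. Of the 40 lipid genes listed for comparison (fatty acid uptake, synthesis, storage, lipolysis and oxidation), 37 were in the gene table and 1, Fatp1 itself, was paired with a transcript of the array. None of the 34 markers of tissues and stages was paired with one. The values of other lipid genes and of marker genes were therefore not analysed here.

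The stage labels were checked with a stage score that did not use Fatp1. For each strain, the 200 strongest rises and the 200 strongest falls on average over the other 3 strains were taken, and the score of an array was the mean log2 intensity of the rises minus that of the falls. Prepupal arrays scored from 0.84 to 2.14 and larval arrays from -2.18 to -0.68. In every strain all prepupal arrays scored above all larval ones. Of the prepupae, Zimbabwe-109 replicate 2 stood apart at 0.84, with the other 11 arrays at 1.82 or above. Of the larvae, the Oregon-R arrays scored from -0.95 to -0.68 and Zimbabwe-109 replicate 4 scored -0.99, all higher than the other larval arrays. The lists differed between strains and the intensities were not centred, so scores of different strains are not on a common scale. The array medians of the deposited intensities ran from 1936 to 3289, and precision is limited by the number of arrays.

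The first question was how the Fatp1 transcript stood in prepupae and in late larvae of each strain. Levels are log2 intensities after quantile normalization, which gives all arrays the same distribution. In Oregon-R prepupae, replicates 2, 3 and 5 read 11.35, 10.99 and 11.23, and in Oregon-R late larvae replicates 2, 3 and 5 read 11.97, 11.86 and 12.01. The larval arrays lay close together, and all of them were above the prepupal ones. In Canton-S prepupae, replicates 1, 2 and 3 read 11.77, 11.38 and 11.54, and in Canton-S late larvae replicates 1, 3 and 4 read 12.81, 12.88 and 12.89. These larvae held the 3 highest values of the whole series, and these prepupae the highest prepupal value.

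In Samarkand prepupae, replicates 1, 2 and 3 read 11.34, 11.18 and 11.25, and in Samarkand late larvae replicates 2, 3 and 4 read 12.66, 12.36 and 12.72. The 2 stages were again apart, and larval replicate 3 was the low one. In Zimbabwe-109 prepupae, replicates 2, 3 and 4 read 11.25, 11.31 and 11.24, and in Zimbabwe-109 late larvae replicates 1, 3 and 4 read 12.46, 11.79 and 12.12. The prepupal replicates were the closest of any group and the larval replicates the widest. Prepupal replicate 2, the array with the low stage score, did not stand out for Fatp1.

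**Figure D1:**
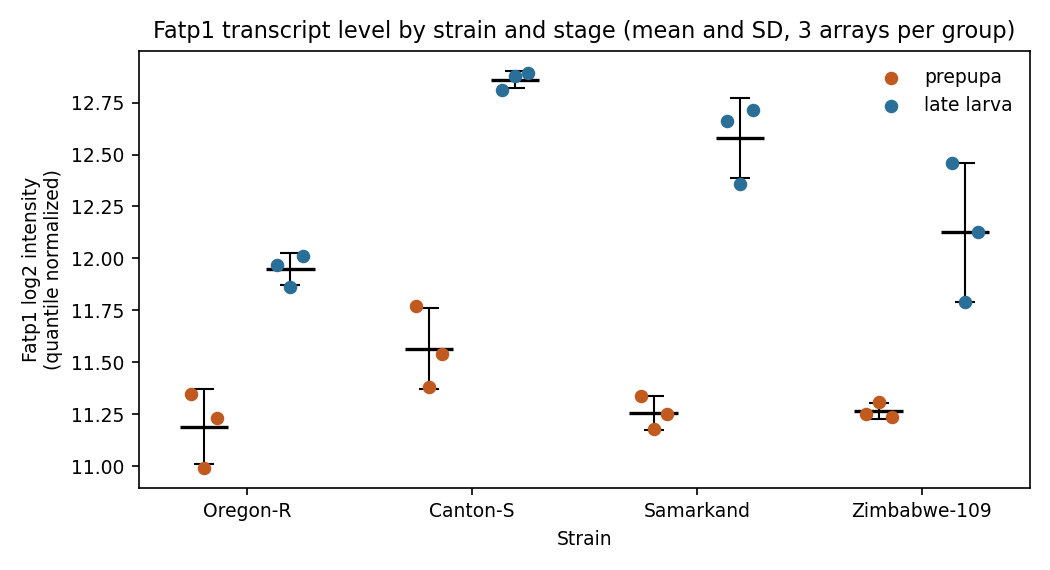
Fatp1 log2 intensity (vertical axis, quantile normalized) in each of the 24 arrays, by strain (horizontal axis), with prepupae left of late larvae; points are arrays, lines are group means and bars are SD of 3 arrays. Larvae lie above prepupae in every strain, from 12.86 in Canton-S to 11.95 in Oregon-R larvae, while prepupal means lie between 11.19 and 11.56.

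Over all strains, Fatp1 averaged 11.32 ± 0.19 in prepupae and 12.38 ± 0.41 in late larvae (SD, n = 12 each). Prepupae ran from 10.99 through a median of 11.28 to 11.77, and late larvae from 11.79 through a median of 12.41 to 12.89. All 12 larval arrays were above all 12 prepupal arrays, with a gap of only 0.02 between the lowest larva (Zimbabwe-109 replicate 3) and the highest prepupa (Canton-S replicate 1). Of all transcripts, 3.73% had this complete separation with larvae on top. Within a strain such a separation was found for 25.2% of transcripts in Samarkand, 23% in Canton-S, 17.1% in Zimbabwe-109 and 16.3% in Oregon-R, and Fatp1 had it in all 4. Nothing is read from these shares, since the stage contrast chose Fatp1. As deposited, before scaling, the intensities overlapped, from 1915 to 3446 in prepupae and from 3005 to 9609 in late larvae. The overlap arose between strains, since within each strain the deposited larval values were all above the prepupal ones.

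The transcript was of middling rank in prepupae and among the brighter ones in larvae. By group mean it ranked 6785 from the top of 16637 in Canton-S prepupae, 8835 in Zimbabwe-109, 8913 in Samarkand and 9354 in Oregon-R prepupae, so that between 43.8% and 59.2% of transcripts were dimmer. In late larvae it ranked 1172 in Canton-S, 1831 in Samarkand, 3534 in Zimbabwe-109 and 4475 in Oregon-R, with between 73.1% and 93.0% of transcripts dimmer. Ranks are of array intensity, which also depends on the probes, so they do not order amounts of RNA between genes.

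The fitted stage change of Fatp1, prepupa minus late larva averaged over the strains, was -1.06 ± 0.07 on the log2 scale (SE), which put prepupae at 48.0% of the larval intensity. Samarkand had a change of -1.32, Canton-S of -1.30, Zimbabwe-109 of -0.86 and Oregon-R of -0.76 (SE 0.13 for each). Prepupal intensity was therefore 40.0% of the larval one in Samarkand, 40.7% in Canton-S, 55.1% in Zimbabwe-109 and 59.1% in Oregon-R. With background correction by normexp the mean change was -1.37, and which strain fell deepest depended on the scaling: Canton-S changed by -1.70 with median centring, -1.56 without scaling and -1.76 with cyclic loess, beyond Samarkand in all of these.

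As a rank among all 16637 transcripts, counted from the deepest fall, the mean change of Fatp1 stood at 443. It stood at 397 in Samarkand, 562 in Canton-S, 514 in Zimbabwe-109 and 460 in Oregon-R. Between 2.38% and 3.37% of transcripts fell more deeply in a given strain, so the place of Fatp1 differed little even though its change was larger in Canton-S and Samarkand. The stage changes of all transcripts were also larger in those strains. Their root mean square was 0.50 in Samarkand, 0.58 in Canton-S, 0.37 in Zimbabwe-109 and 0.37 in Oregon-R, and the change of Fatp1 was 2.62, 2.25, 2.31 and 2.06 times that size in the same order. Under 4 other ways of scaling or correcting the arrays, the mean change ranked between 438 and 480.

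**Figure D2:**
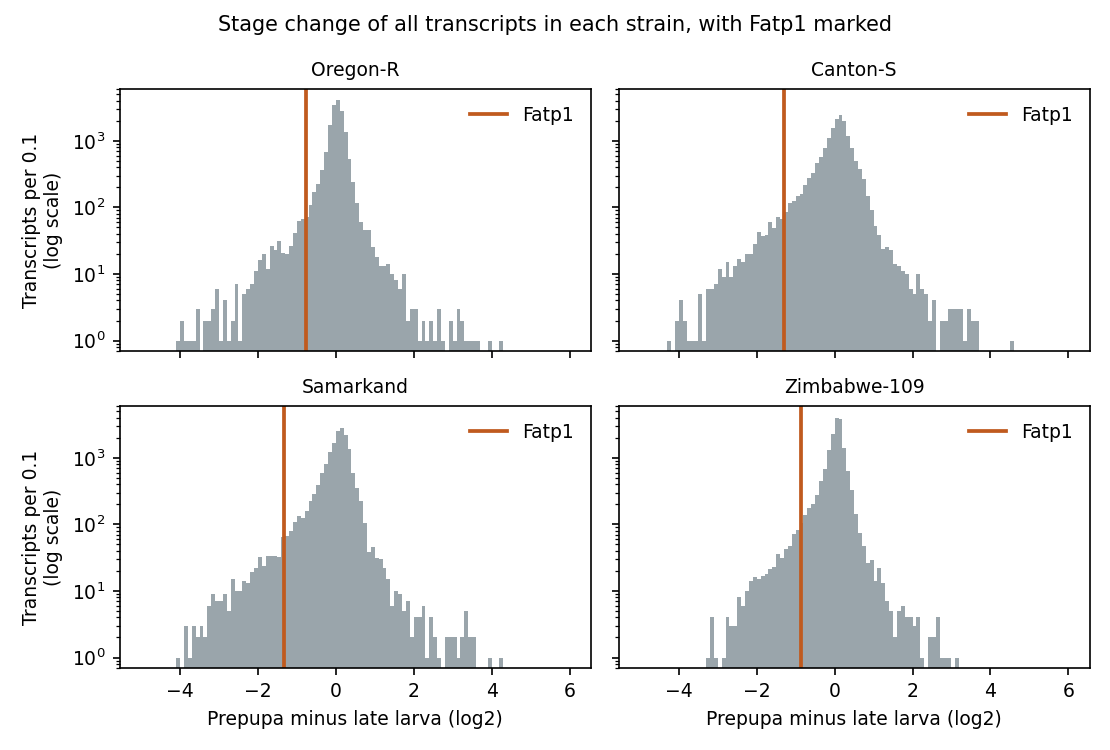
Number of transcripts (vertical axis, log scale) by stage change, prepupa minus late larva on the log2 scale (horizontal axis, bins of 0.1), in each of the 4 strains; the line marks Fatp1. Fatp1 lies in the lower tail at -1.32 in Samarkand, -1.30 in Canton-S, -0.86 in Zimbabwe-109 and -0.76 in Oregon-R, with 2.38% to 3.37% of transcripts beyond it.

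Stage took up 74.6% of the variation of Fatp1 over the 24 arrays, against a median of 17.5% over all transcripts. Differences between strain means took up 15.9% (median 45.6%), the interaction of strain and stage 4.25% (median 5.82%), and replicates within groups 5.22% (median 15.8%). The stage share follows from the choice of the transcript and is a description. In absolute size the replicates of Fatp1 were more spread than most, with a residual SD of 0.17 against a median of 0.10, and 84.7% of transcripts had a smaller one. Of the deviations of Fatp1 from its group means, 68.8% lay along the main axis on which replicate arrays differed over all transcripts, an axis that held 54.7% of the variation between replicates. The part of this axis in the differences below was not tested.

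The second question was whether the strains differed within a stage, a comparison that the choice by stage change did not use. Tests below are two-sided limma tests, and p-values carry the Benjamini-Hochberg adjustment over all 16637 transcripts. In late larvae the 4 strain means of Fatp1 spanned 0.91 and differed (moderated F test, adjusted p = 1.25e-05), as did those of 77.1% of all transcripts. The range was wider than that of most transcripts, with 8.38% having a wider one and a median of 0.41. The prepupal means spanned 0.38, did not pass the test (adjusted p = 0.0624, 67.9% of transcripts passing) and were ordinary in range, with 44.6% of transcripts having a wider one. The prepupal range passed with median centring (adjusted p = 0.0313), with normexp (adjusted p = 0.0382), with a fit of prepupae alone (adjusted p = 0.0383) and with 1 array left out in 5 cases. These were Oregon-R prepupal replicate 2 (0.0407), Canton-S prepupal replicate 2 (0.0348), Samarkand larval replicate 3 (0.0496) and Zimbabwe-109 larval replicates 1 (0.0214) and 3 (0.0206).

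Of the 6 strain pairs in late larvae, 4 passed. Fatp1 averaged 12.86 ± 0.04 in Canton-S larvae and 11.95 ± 0.08 in Oregon-R larvae (SD, n = 3 each), a difference of 0.91 ± 0.13 (SE, limma adjusted p = 5.73e-06), which is 1.88-fold. This pair passed for 64.9% of all transcripts, and 5.29% of transcripts differed more. Samarkand larvae averaged 12.58 ± 0.19 and exceeded Oregon-R larvae by 0.63 ± 0.13 (limma adjusted p = 0.000843, 35.1% of transcripts passing). In both pairs the arrays of the strains did not overlap. The size of the first pair depended on the scaling, at 1.40 with median centring.

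Zimbabwe-109 larvae averaged 12.13 ± 0.33 and were below Canton-S larvae, a difference of -0.74 ± 0.13 (limma adjusted p = 7.92e-05, 62.9% of transcripts passing; -1.24 with median centring and -1.16 with cyclic loess). The SE of each pair comes from a spread shared by all groups, while the larval SD ran from 0.04 in Canton-S to 0.33 in Zimbabwe-109. Zimbabwe-109 larvae were also below Samarkand larvae, by -0.45 ± 0.13 (limma adjusted p = 0.0108, 35.3% passing), but the arrays of these strains overlapped. That last pair did not pass without Zimbabwe-109 larval replicate 3 (adjusted p = 0.0916), without Samarkand larval replicate 4 (adjusted p = 0.0606) or without scaling (adjusted p = 0.149). The other 2 pairs did not pass. Samarkand larvae stood at -0.28 from Canton-S larvae (95% interval -0.56 to -0.01, adjusted p = 0.083, 48.1% passing; -0.78 with median centring, -0.68 with cyclic loess, both passing), and Zimbabwe-109 larvae at 0.18 from Oregon-R larvae (95% interval -0.10 to 0.45, adjusted p = 0.329, 32% passing). The first of these passed without Zimbabwe-109 larval replicate 1 (adjusted p = 0.0395) or 3 (adjusted p = 0.0384), and the second without larval replicate 3 (adjusted p = 0.0407).

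Of the 6 pairs in prepupae, 1 passed. Canton-S prepupae averaged 11.56 ± 0.20 and Oregon-R prepupae 11.19 ± 0.18 (SD, n = 3 each), a difference of 0.38 ± 0.13 (SE, limma adjusted p = 0.0245), with 46.6% of transcripts passing. It did not pass without Canton-S prepupal replicate 1 (0.27, adjusted p = 0.131) or Oregon-R prepupal replicate 3 (0.28, adjusted p = 0.126), nor with cyclic loess (adjusted p = 0.0727) or without scaling (adjusted p = 0.329). Samarkand and Zimbabwe-109 prepupae averaged 11.26 ± 0.08 and 11.26 ± 0.04 (SD, n = 3 each). They differed from Canton-S prepupae by -0.31 and -0.30 (adjusted p = 0.0554 and 0.059, with 51.7% and 55.7% of transcripts passing). Both differences passed with median centring (adjusted p = 0.0262 and 0.0313), with normexp (0.0399 and 0.0434), with prepupae fitted alone (0.0369 and 0.0373) and with 1 array left out in 5 cases each: Oregon-R prepupal replicate 3, Canton-S prepupal replicate 2, Samarkand larval replicate 3 and Zimbabwe-109 larval replicates 1 and 3. The other 3 pairs, which do not involve Canton-S, differed by 0.08 at most, and the widest of their 95% intervals reached 0.35 (adjusted p from 0.732 to 0.975; 17.7%, 26.8% and 25.4% of transcripts passing).

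**Figure D3:**
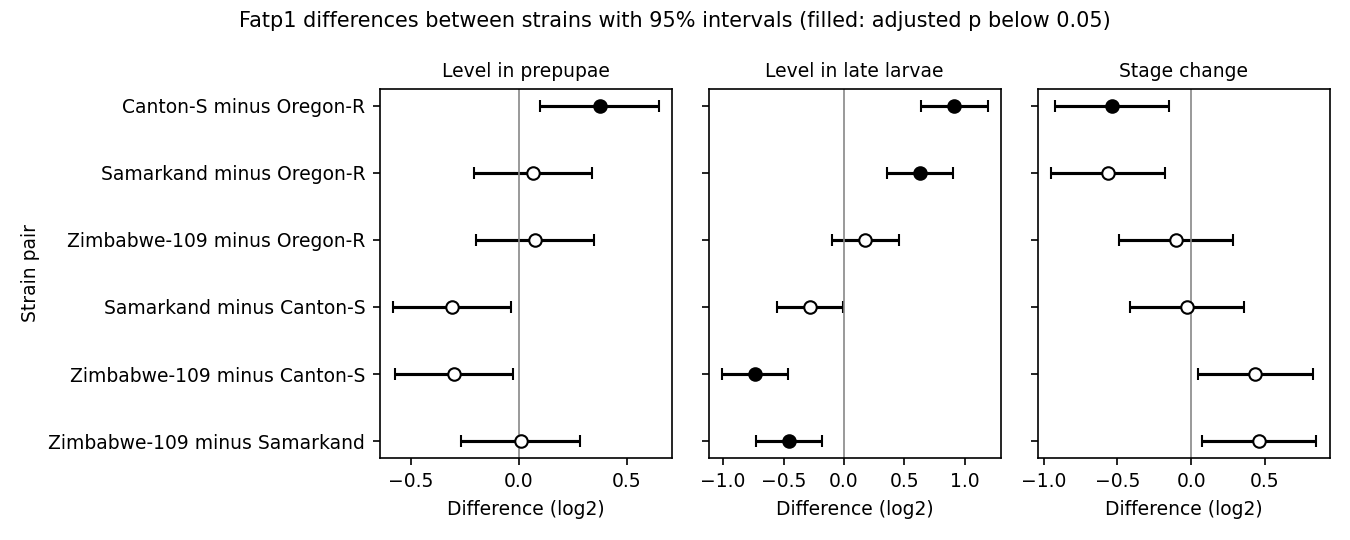
Differences of Fatp1 between strains on the log2 scale (horizontal axis) for the 6 strain pairs (vertical axis), as level in prepupae, level in late larvae and stage change; points are fitted differences, bars 95% intervals, and filled points passed at an adjusted p below 0.05. In late larvae 4 pairs passed, in prepupae 1 and for the stage change 1.

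Averaged over both stages, Fatp1 stood at 12.21 in Canton-S, 11.92 in Samarkand, 11.70 in Zimbabwe-109 and 11.57 in Oregon-R. Canton-S exceeded Oregon-R by 0.64 ± 0.09 (SE, limma adjusted p = 4.94e-06, 68.6% of transcripts passing), and Samarkand exceeded Oregon-R by 0.35 ± 0.09 (limma adjusted p = 0.00569, 36.3% passing). Canton-S was above Samarkand and Zimbabwe-109 too, with differences of -0.30 for Samarkand minus Canton-S and -0.52 for Zimbabwe-109 minus Canton-S (limma adjusted p = 0.00943 and 5.82e-05, 62.6% and 70.3% passing). With median centring these 2 differences were -0.57 and -0.79, and with cyclic loess -0.45 and -0.69. The remaining differences were 0.13 for Zimbabwe-109 minus Oregon-R (95% interval -0.07 to 0.32, adjusted p = 0.295, 41.2% passing) and -0.22 for Zimbabwe-109 minus Samarkand (95% interval -0.42 to -0.03, adjusted p = 0.0589, 43.9% passing). The first passed without Zimbabwe-109 larval replicate 3 (adjusted p = 0.0479). The second passed without Oregon-R prepupal replicate 3 (0.048), Canton-S prepupal replicate 1 (0.0464), Samarkand larval replicate 3 (0.0233) or Zimbabwe-109 larval replicate 1 (0.00501), and with adjustment over the 6 pairs together (0.0491). Without scaling, the 2 pairs of Samarkand did not pass (adjusted p = 0.055 against Oregon-R and 0.118 against Canton-S).

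The 8 group means thus ran in the order Canton-S, Samarkand, Zimbabwe-109 and Oregon-R larvae, then Canton-S, Zimbabwe-109, Samarkand and Oregon-R prepupae. Of the neighbours within a stage, Samarkand and Zimbabwe-109 larvae, 0.45 apart, differed past the threshold and the others did not. The step across the stages was 0.38, between Oregon-R larvae and Canton-S prepupae, and was not tested.

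Taken from the lowest up, the larval stage scores of the strains stood in the order of their Fatp1 levels. Each strain was scored with lists of its own, so scores of different strains are not on a common scale. The score averaged -2.11 in Canton-S larvae, -1.94 in Samarkand larvae, -1.39 in Zimbabwe-109 larvae and -0.81 in Oregon-R larvae. Nothing is read from this order of strains. The scales differ, and the score subtracts falling transcripts, while Fatp1 was itself chosen for a fall. The size of the stage change over all transcripts ran in the same order, with Zimbabwe-109 and Oregon-R nearly equal. Its root mean square was 0.576 in Canton-S, 0.504 in Samarkand, 0.373 in Zimbabwe-109 and 0.369 in Oregon-R. The parts of the larval score and of this size in the strain differences of Fatp1 were not tested. Among the larval arrays within Oregon-R, within Canton-S and within Samarkand, a lower score went with a higher Fatp1 level throughout. Within Zimbabwe-109 larvae that order did not hold. There replicate 3 had the lowest Fatp1 level and a score of -1.44, between those of replicates 1 and 4 at -1.73 and -0.99. Prepupal scores lay between 1.82 and 2.14 apart from Zimbabwe-109 replicate 2, and there Canton-S had the highest Fatp1 with a score of 1.92, between the means of the other strains.

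**Figure D4:**
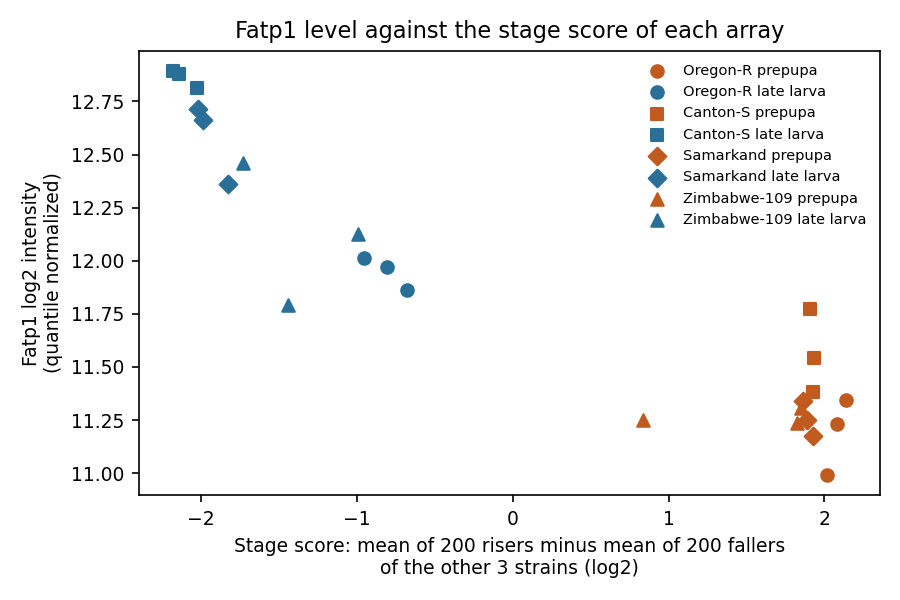
Fatp1 log2 intensity (vertical axis, quantile normalized) against the stage score of each array (horizontal axis, log2, from transcripts other than Fatp1), with symbols for the 4 strains and colours for prepupae and late larvae. Larval arrays run from -2.18 with Fatp1 at 12.89 in Canton-S to -0.68 with 11.86 in Oregon-R, and prepupal arrays cluster above 1.8 except Zimbabwe-109 replicate 2 at 0.84. Each strain has score lists of its own, so scores of different strains are not on a common scale.

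The third question was whether the stage change differed among strains. The 4 changes spanned 0.56, and the interaction passed by a small margin (moderated F test, limma adjusted p = 0.0446, 23.6% of transcripts passing). It also passed with median centring (adjusted p = 0.000779) and cyclic loess (adjusted p = 0.000824). It did not pass without scaling (adjusted p = 0.213), with normexp (adjusted p = 0.117), with a fixed replicate block (adjusted p = 0.0882) or with a random one (adjusted p = 0.0537). Nor did it pass with the Zimbabwe-109 larval replicate 4 and prepupal replicate 2 left out (adjusted p = 0.0718). Leaving out 1 array ended the call for 18 of the 24 arrays. The 6 exceptions were Oregon-R prepupal replicate 3, Canton-S prepupal replicate 1, Samarkand larval replicate 3 and prepupal replicate 1, and Zimbabwe-109 larval replicates 1 and 3, and over all 24 the adjusted p ran from 0.00515 to 0.0928.

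Of the 6 pairs of strains, 1 differed in the stage change. The change of -1.30 in Canton-S was deeper than that of -0.76 in Oregon-R by -0.54 ± 0.19 (SE, limma adjusted p = 0.038, 25.8% of transcripts passing), but this call was lost when any 1 of 9 arrays was left out. These were Oregon-R larval replicates 2 and 3 and prepupal replicates 2 and 5, all Canton-S larval replicates, and Canton-S prepupal replicates 2 and 3. The difference itself ran from -0.64 to -0.44 over the 24 fits, and was -0.99 with median centring and -1.03 with cyclic loess, both passing. It did not pass without scaling (adjusted p = 0.0749), with normexp (adjusted p = 0.12), with a fixed replicate block (adjusted p = 0.115), without the 2 Zimbabwe-109 arrays (adjusted p = 0.0502) or with adjustment over the 6 pairs together (adjusted p = 0.0740). Samarkand minus Oregon-R was larger in size at -0.56 ± 0.19, but did not pass (limma adjusted p = 0.064), in a comparison in which 8.99% of transcripts passed. The others did not pass either: Zimbabwe-109 minus Samarkand was 0.46 (95% interval 0.08 to 0.85, adjusted p = 0.301, 2.9% passing), Zimbabwe-109 minus Canton-S 0.44 (95% interval 0.05 to 0.82, adjusted p = 0.133, 14.3% passing), Zimbabwe-109 minus Oregon-R -0.10 (95% interval -0.49 to 0.29, adjusted p = 0.839, 4.22% passing) and Samarkand minus Canton-S -0.03 (95% interval -0.41 to 0.36, adjusted p = 0.978, 6.64% passing). Of these, Zimbabwe-109 minus Canton-S passed with median centring (0.91) and cyclic loess (0.94). Without Zimbabwe-109 larval replicate 1 that pair, Zimbabwe-109 minus Samarkand and Samarkand minus Oregon-R all passed (adjusted p = 0.014, 0.0297 and 0.0242). The last of these passed too without Zimbabwe-109 larval replicate 3 (0.0241), Samarkand larval replicate 3 (0.0258), Canton-S prepupal replicate 1 (0.0453) or Oregon-R prepupal replicate 3 (0.0291), and with the dimmest 50% of transcripts left out (0.0488). The strain range of Fatp1 in prepupae was 0.41 times that in larvae, and 63.2% of all transcripts had a narrower range in prepupae. This ratio was 0.29 with median centring, 0.25 without scaling, 0.23 with cyclic loess, 0.51 with normexp and 0.12 without Canton-S.

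Transcripts with a pattern like that of Fatp1 were sought over the 8 group means, each transcript centred on its own mean, with the root mean square difference as the measure of likeness. The centred means of Fatp1 themselves had a root mean square of 0.60, and the median difference of the other transcripts from it was 0.66. The nearest were FBtr0113004 and FBtr0081109, which had no gene name here, at 0.066 and 0.072. FBtr0113004 averaged 10.66 in prepupae and 11.63 in late larvae, and FBtr0081109 averaged 11.22 in prepupae and 12.22 in late larvae. A difference below 0.15 was found for 60 transcripts. With median centring or no scaling, 1 of these 2 was among the 20 nearest, and with cyclic loess, normexp or Pearson's r as the measure both were.

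The transcripts nearest to the mirror image of Fatp1 were FBtr0070639 and FBtr0070640, at 0.13 and 0.15. FBtr0070639 averaged 15.15 in prepupae and 13.98 in late larvae, and FBtr0070640 averaged 15.09 in prepupae and 13.91 in late larvae. Like Fatp1, both were farthest from the other groups in Canton-S larvae, in the opposite direction. No more than these 2 transcripts lay below 0.15.

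Among the transcripts with a gene name, alpha-Spec, the gene of a spectrin chain beneath the cell membrane, was nearest to Fatp1 at 0.27, which ranked 449 among all transcripts. NaPi-III, a sodium-dependent phosphate transporter, followed at 0.41 (rank 1582) and kis, a chromatin remodeller, at 0.47 (rank 2449). By Pearson's r over the 8 group means the order was another one. It gave 0.92 for kis, 0.90 for alpha-Spec and 0.73 for NaPi-III, the last below other named transcripts. For Fatp1 the stage change was -1.30 in Canton-S and -1.32 in Samarkand, against -1.21 and -0.55 for alpha-Spec in the same strains. In Zimbabwe-109 it was -0.86 for Fatp1 and -0.68 for alpha-Spec, and in Oregon-R -0.76 and -0.21, so the 2 were closest in Canton-S and farthest apart in Samarkand.

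**Figure D5:**
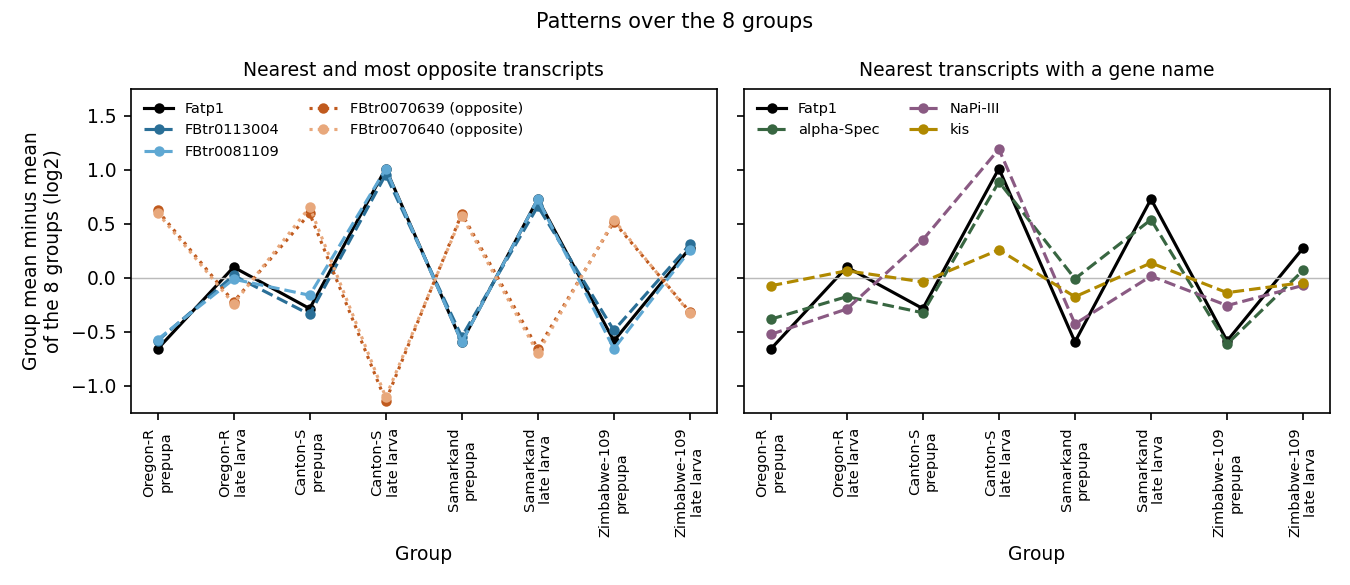
Group means of single transcripts minus the mean of the 8 groups (vertical axis, log2) for the 8 strain-by-stage groups (horizontal axis), with Fatp1 in black; left, the 2 nearest and the 2 most opposite transcripts, right, the 3 nearest with a gene name. Nearness is the root mean square difference of the centred means from Fatp1, 0.066 for FBtr0113004, 0.072 for FBtr0081109 and 0.27 for alpha-Spec.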

How the data were processed

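The deposited values were linear intensities of 16637 transcripts in 24 columns, 1 per array; the submitters' processing notes name RMA without a version. Array medians differed, no 2 columns were identical, and whether a background had been subtracted was not stated. After a log2 transform, quantile normalization across the 24 arrays was done with limma (version 3.58.1, R version 4.3.3). No transcript was filtered out. A limma model with 1 mean per group (16 residual degrees of freedom) and empirical Bayes moderation gave changes, strain pairs and moderated F tests, with a threshold of 0.05 on the adjusted p. Errors beside differences are SE and intervals are 95%, both from a spread per transcript that all groups share. The fits were also run on simulated data with independent errors. That check does not cover the main axis on which replicate arrays differed.

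The transcript, gene lists and tests were chosen with earlier results of these data known. The transcripts named are Fatp1, the 2 nearest and the 2 most opposite in likeness, the 3 nearest with 1 gene name, and list members with a name. The gene table (assembly Release 6) held 44 of the 16637 identifiers, 16 of them with 1 gene and 28 with several. No coordinates are given, since no build was named for the arrays. Replicate numbers came from the last digit of the sample titles. Of 9 larva and prepupa pairs of equal strain and number, 5 had a correlation of deviations above 0.1 (from -0.63 to 0.42). So few pairs of mixed sign cannot settle whether the numbers pair the samples. The main fit left the samples unpaired, and fits with a replicate block are given beside it.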

Additional observations from a re-analysis of the deposited data

Results flagged for a closer look

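The stage change of Fatp1 differed among the 4 strains by the interaction test (limma adjusted p = 0.0446), from -1.32 in Samarkand and -1.30 in Canton-S to -0.86 in Zimbabwe-109 and -0.76 in Oregon-R, lower in prepupae in 4 of 4 strains. Between Canton-S and Oregon-R the stage change differed by -0.54 (limma adjusted p = 0.038). These 2 results are given for a closer look because an effect of the same contrast differed between groups by a test of the difference; leaving out 1 array ended the first call for 18 of the 24 arrays and the second for 9. The second call was also lost without scaling (limma adjusted p = 0.0749), with normexp (0.12) and with a fixed replicate block (0.115). It was lost as well with adjustment over the 6 pairs together (0.0740), and without Zimbabwe-109 larval replicate 4 and prepupal replicate 2 (0.0502). The first was lost without scaling (0.213), with normexp (0.117), with a fixed (0.0882) or random (0.0537) replicate block and without those 2 arrays (0.0718). Stage changes of all transcripts were also larger in Canton-S than in Oregon-R, with root mean squares of 0.58 and 0.37. The change of Fatp1 was 2.25 and 2.06 times that size. The part of this size in the 2 calls was not tested.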

How the results depend on the processing

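The stage change of Fatp1 kept its direction in every strain under all settings run. Leaving out 1 array at a time, the mean change ran from -1.10 to -1.02, that of Oregon-R from -0.84 to -0.66, of Canton-S from -1.39 to -1.20, of Samarkand from -1.44 to -1.26 and of Zimbabwe-109 from -1.03 to -0.70. Normexp gave -1.37 for the mean and -1.06, -1.59, -1.71 and -1.15 for Oregon-R, Canton-S, Samarkand and Zimbabwe-109. Canton-S was at -1.70 with median centring, -1.56 without scaling and -1.76 with cyclic loess. The rank of the mean change ran from 426 to 480. The strain difference in late larvae passed under every setting (adjusted p from 3.57e-08 to 0.00326; 9.74e-07 to 9.46e-05 with 1 array left out). So did its pairs Canton-S minus Oregon-R, Samarkand minus Oregon-R and Zimbabwe-109 minus Canton-S wherever they could be computed. Below, the cause of a changed call was not tested, save that leaving out a strain leaves fewer pairs.

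The interaction (moderated F test, adjusted p 0.0446) gave 0.213 without scaling, 0.117 with normexp, 0.139 without Canton-S and 0.208 without Oregon-R. It gave 0.0718 without Zimbabwe-109 larval replicate 4 and prepupal replicate 2, and 0.00515 to 0.0928 with 1 array left out. With a random replicate block within strains it gave 0.0537. With a fixed replicate block it gave 0.0882, the change of Zimbabwe-109 was -0.69 and 0 pairs of stage changes passed. The fixed block draws its stage changes from the 9 larva and prepupa pairs of equal strain and number alone. Arrays without a partner add nothing to them, and 5 residual degrees of freedom remain. The fixed block cannot give strain differences within a stage, since each block lies in 1 strain. The strain difference in prepupae (adjusted p 0.0624) gave 0.0313 with median centring, 0.0382 with normexp, 0.0383 with prepupae fitted alone and 0.0206 to 0.348 with 1 array left out.

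Of the pairs of stage changes (1 passing), 2 passed with median centring, cyclic loess or the dimmest 50% of transcripts left out. None (0) passed without scaling, with normexp, without Canton-S, Oregon-R or the 2 Zimbabwe-109 arrays, or adjusted over the 6 pairs together, and 0 to 4 with 1 array left out. Of the larval pairs (4 passing), 2 passed without Canton-S and 2 without Oregon-R, and 3 to 5 with 1 array left out. Of the prepupal pairs (1 passing), 3 passed with median centring, normexp or prepupae fitted alone, 0 without scaling, with cyclic loess, without Canton-S or without Oregon-R, and 0 to 3 with 1 array left out. Of the pairs over both stages (4 passing), 2 passed without scaling, 1 without Canton-S, 2 without Oregon-R and 4 to 5 with 1 array left out. The setting without Oregon-R was chosen after seeing the data.

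The reversals were in pairs that did not pass. Samarkand minus Canton-S in the stage change was 0.44 with median centring, 0.22 without scaling, 0.45 with cyclic loess and -0.137 to 0.076 with 1 array left out. Zimbabwe-109 minus Oregon-R in the stage change was 0.073 with the fixed replicate block and -0.269 to 0.066 with 1 array left out. In prepupae, Zimbabwe-109 minus Samarkand was -0.11 without scaling and -0.030 to 0.051 with 1 array left out, Samarkand minus Oregon-R was -0.032 to 0.145 and Zimbabwe-109 minus Oregon-R -0.023 to 0.154, each with 1 array left out. Of the 2 transcripts nearest in likeness, 1 was among the 20 nearest with median centring and 1 without scaling.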
